A study of Mus musculus with 15 samples.

Results

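Inguinal white fat in which HDAC4 had been targeted in addition to LKB1 (dKO) was compared with fat in which LKB1 alone had been targeted (KO). Of the 15 libraries of the series, 10 were chosen by their genotype labels, 5 KO and 5 dKO, and the 5 WT libraries were left out. All mice were C57BL/6 and 8 weeks old. KO mice were AdipoqCre LKB1 F/F, with Cre recombinase driven by the promoter of adiponectin, an adipocyte gene, and floxed alleles of LKB1. dKO mice were AdipoqCre LKB1 F/F; HDAC4 F/F, so both groups carried Adipoq-Cre and floxed LKB1 and differed in the floxed HDAC4 alleles. The design lists 5 mice in each group, and 2 dKO libraries bear the labels 1753 and 1753-2. Whole tissue was sequenced, so RNA of vessels, immune cells and stroma is present, and fewer cells of a type cannot be told apart from less RNA per cell.

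LKB1 is a kinase that switches on AMPK and the salt-inducible kinases. Salt-inducible kinases phosphorylate the class IIa histone deacetylases, of which HDAC4 is one, and hold them in the cytoplasm bound to 14-3-3 proteins. In the nucleus class IIa deacetylases repress genes bound by MEF2 and other factors, and the same kinases hold back the CRTC coactivators of CREB, which binds cAMP response elements. Subcutaneous fat can hold beige adipocytes, which make heat with the mitochondrial uncoupling protein UCP1, and the comparison asks how the expression of KO fat differs when HDAC4 is targeted too.

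Raw counts per library ran from 2969355 to 21570688 in KO and from 1564004 to 12089891 in dKO, and 33.55 to 50.03% of them fell on the mitochondrial ribosomal RNAs. The other genes held 911371 to 12689115 counts per library. Libraries 1753 and 1753-2 (dKO replicates 4 and 5) stood apart from the rest. Between them the median absolute log2 difference of expressed genes was 0.0788, against 0.174 to 0.231 among the other 3 dKO libraries, 0.102 to 0.272 among KO libraries, and 0.381 to 0.481 between either 1753 library and the other dKO libraries. Both lay outside the range of all other 8 libraries for 4361 of 11899 tested genes (36.7%), above it for 2224 and below it for 2137. Their counts differed by more than sampling noise allows for one library deposited in duplicate, so they were counted as 2 libraries, and whether they come from 1 mouse is not stated. The biological coefficient of variation was 19.2% for KO libraries, 30.3% for dKO and 16.7% for dKO libraries without the pair. Most results are therefore given for all 10 libraries and again without 1753 and 1753-2 (5 KO and 3 dKO). The dKO libraries carried barcodes 12 to 16 and the KO libraries other barcodes, so effects of barcode and of genotype cannot be told apart.

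In fat with all 10 libraries, 4 genes rose and 1 fell in dKO against KO. The genes that rose were Ctse, which encodes the aspartic protease cathepsin E, Ugt1a6a, a UDP-glucuronosyltransferase that couples glucuronic acid to phenols and drugs, and the predicted genes Gm15369 and Gm15372, which lie within the Ugt1a gene cluster. The gene that fell was Ucp1, which encodes the uncoupling protein of thermogenic fat. These 5 genes were 0.042% of the 11899 tested (edgeR quasi-likelihood test, adjusted p under 0.05), 0.0336% higher and 0.0084% lower. An unadjusted p under 0.05 was reached by 658 genes (5.53%), higher in dKO for 3.04% of tested genes and lower for 2.49%. The KO and dKO libraries did not overlap for 134 genes (1.13%), of which 76 were higher (0.639%) and 58 lower (0.487%).

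Without 1753 and 1753-2, 28 of 11908 genes were called (0.235%), of which 12 rose (0.101%) and 16 fell (0.134%). Ctse, Ugt1a6a, Gm15369 and Gm15372 were called in both fits, 24 genes were called only without the pair, and Ucp1 was called only with all 10. An unadjusted p under 0.05 was reached by 1242 genes (10.4%), higher for 4.2% of tested genes and lower for 6.23%, and 869 genes (7.3%) had no overlap between the 5 KO and 3 dKO libraries. This fit had a biological coefficient of variation of 18.8%, against 25.5% in the fit of all 10. Over all tested genes the median log2 fold change was 0.0025 with all libraries and -0.009 without the pair. Both counts depended on single libraries. The count of 5 fell to 0 without KO replicate 1, by far the deepest KO library, and rose to 8 without dKO replicate 1. The count of 28 was 4 without dKO replicate 2, 10 without dKO replicate 3, 10 without KO replicate 1, 18 without KO replicate 3 and 56 without KO replicate 4.

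**Figure D1:**
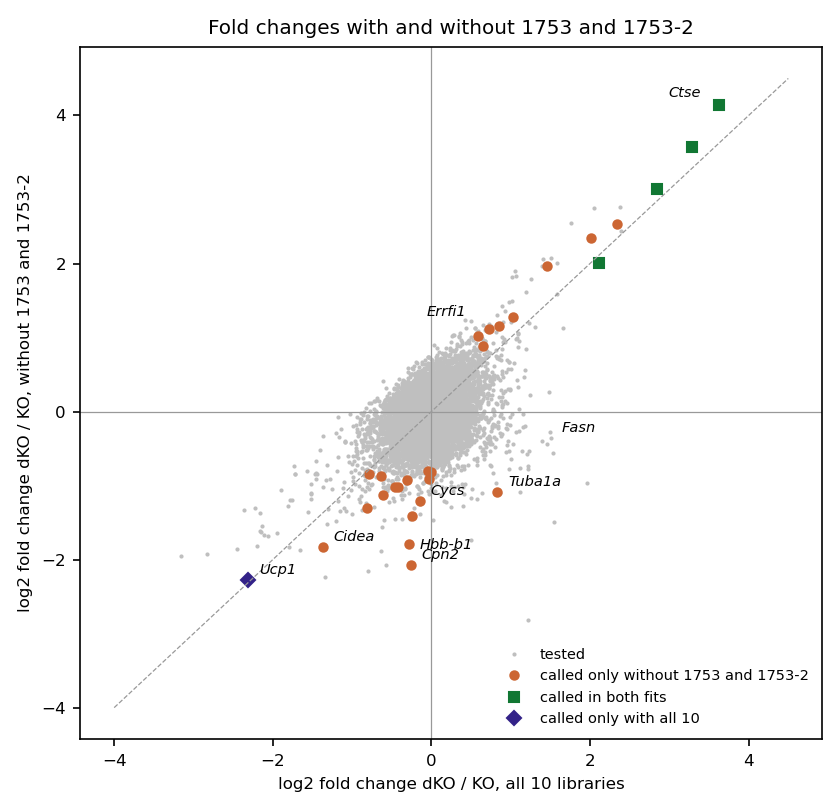
Log2 fold change of dKO over KO for each gene tested in both fits, with all 10 libraries on the horizontal axis and without 1753 and 1753-2 on the vertical axis. The dashed line marks equal values. The 4 genes called in both fits lie at the upper right, Ucp1 lies on the line at the lower left, and Tuba1a and Fasn lie to the right of it, with values of 0.83 and 1.51 with all libraries and -1.08 and -0.36 without the pair.

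No difference was detected in the counts of either targeted gene. Stk11, the gene of LKB1 (ENSMUSG00000003068, mm9 chromosome 10, 79578548 to 79593427, 10 exons), had a mean of 17.7 ± 4.14 CPM (counts scaled to a common library size) in KO libraries and 19.1 ± 2.84 CPM in dKO libraries (SD over 5), with a log2 fold change of 0.07 (SE 0.19, edgeR adjusted p = 0.981). The larger of the 2 Hdac4 features (ENSMUSG00000026313, mm9 chromosome 1, 93829334 to 94044970, 27 exons) was at 11, 13.2, 8.03, 8.23 and 10 CPM in KO and at 10.6, 10.6, 11, 9.4 and 9.24 CPM in dKO. The groups overlapped, and the log2 fold change was -0.03 (SE 0.18, edgeR adjusted p = 0.995). It was 0.05 without the 1753 pair (adjusted p = 0.962). Which exons Cre removes is not given here, the tissue also holds cells that do not express Adipoq-Cre, and the value sums all 27 exons, so these counts do not check the label.

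Promoter sequences were set beside the called genes because both pathways named above act through DNA-bound factors. From RefSeq, GRCm38.p6, 300 bases (250 before and 50 after the annotated start) were available for 18 of the 29 genes called in either fit, in 20 promoters. The cAMP response element octamer TGACGTCA was searched together with its half-site TGACG, on both strands. Half-sites overlap inside an octamer. The thermogenic gene Ucp1 and the electron carrier gene Cycs are shown as called genes that fell, Errfi1 as one that rose with an octamer, and Ugt1a6a and Ugt1a5 as cluster genes that rose. Capitals mark half-sites, read as TGACG or, from the other strand, as its reverse complement.
Ucp1, chr8:83290098-83290397, plus strand: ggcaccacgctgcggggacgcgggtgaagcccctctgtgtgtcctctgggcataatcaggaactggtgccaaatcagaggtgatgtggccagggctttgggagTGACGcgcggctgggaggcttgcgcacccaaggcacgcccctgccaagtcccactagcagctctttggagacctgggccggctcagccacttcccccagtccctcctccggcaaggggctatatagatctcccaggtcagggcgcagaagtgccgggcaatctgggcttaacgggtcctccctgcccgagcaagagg
Cycs, chr6:50566520-50566819, minus strand: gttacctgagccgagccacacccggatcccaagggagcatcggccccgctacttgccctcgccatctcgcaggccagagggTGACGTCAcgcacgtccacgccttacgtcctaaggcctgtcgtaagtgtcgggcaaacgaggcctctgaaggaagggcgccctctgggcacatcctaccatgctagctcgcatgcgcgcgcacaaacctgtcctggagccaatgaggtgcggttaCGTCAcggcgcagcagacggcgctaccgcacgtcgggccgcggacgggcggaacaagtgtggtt
Errfi1, chr4:150854820-150855119, plus strand: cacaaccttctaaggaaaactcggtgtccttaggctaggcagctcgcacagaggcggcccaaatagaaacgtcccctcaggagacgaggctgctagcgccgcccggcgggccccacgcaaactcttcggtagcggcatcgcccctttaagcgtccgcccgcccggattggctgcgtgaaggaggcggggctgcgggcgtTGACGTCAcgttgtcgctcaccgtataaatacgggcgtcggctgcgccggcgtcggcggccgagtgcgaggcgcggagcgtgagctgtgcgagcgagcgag
Ugt1a6a, chr1:88134559-88134858, plus strand: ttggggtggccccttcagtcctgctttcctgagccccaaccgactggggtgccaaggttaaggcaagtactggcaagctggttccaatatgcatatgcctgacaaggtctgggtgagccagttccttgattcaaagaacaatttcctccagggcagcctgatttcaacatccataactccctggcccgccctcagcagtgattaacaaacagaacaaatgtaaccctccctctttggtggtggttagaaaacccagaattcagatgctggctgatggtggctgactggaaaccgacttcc
Ugt1a5, chr1:88165762-88166061, plus strand: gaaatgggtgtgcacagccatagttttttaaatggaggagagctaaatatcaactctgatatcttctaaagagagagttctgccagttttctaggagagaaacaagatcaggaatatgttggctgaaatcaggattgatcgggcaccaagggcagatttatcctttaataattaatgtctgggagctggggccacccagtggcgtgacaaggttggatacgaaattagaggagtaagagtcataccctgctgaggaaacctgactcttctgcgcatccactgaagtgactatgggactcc
The Ucp1 promoter held 1 half-site, 147 bases before the start. Cycs held an octamer and a further half-site, Errfi1 held an octamer 51 bases before the start, and the promoters of Ugt1a6a and Ugt1a5 held no half-site. An octamer was found in the promoters of 3 of the 18 genes, Cycs, Errfi1 and Trp53inp2 (3 of 20 promoters, 15%), against 1.79% of all 32851 promoters. A half-site was found in 6 of 20 promoters (30%) against 20.8% of all, and the MEF2 consensus was in none of the 20 and in 3.19% of all. Cycs and Trp53inp2 fell and Errfi1 rose, all without the 1753 pair only. A match of letters is a description of the window and not a binding site.

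Ctse was the gene with the largest rise among those called in each fit. Ctse (ENSMUSG00000004552, mm9 chromosome 1, 133534883 to 133572080, 10 exons) was at 6.66, 3.25, 5.07, 6.81 and 3.94 CPM in the KO libraries. In dKO it was at 108, 68.6 and 111 CPM in replicates 1 to 3 and at 22.7 and 23.1 CPM in 1753 and 1753-2. All 5 dKO libraries were above all KO libraries, and the 1753 pair lay between KO and the other dKO libraries. The log2 fold change was 3.62 (SE 0.50, edgeR adjusted p = 0.0183) with all 10 and 4.14 (SE 0.22, edgeR adjusted p = 3.19e-08) without the pair. With all 10 libraries the edgeR call was lost on leaving out any 1 KO library (adjusted p = 0.0686, 0.0729, 0.109, 0.0675 and 0.0699 without KO replicates 1 to 5), and without the pair it held in each of 14 alternatives. Of 16 tested cathepsins and related aspartic proteases, Ctse was the 1 called in each fit. Of all tested genes 0.042% were called with all libraries and 0.235% without the pair. The median log2 fold change of the list was -0.06 with all libraries and -0.05 without the pair.

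The Ugt1a cluster was higher in dKO throughout. In this cluster many first exons share the last exons, so that each first exon gives its own enzyme. Between 89951963 and 90116577 of mm9 chromosome 1 the table lists 19 features, 9 of them Ugt1a genes and 8 predicted genes. Their counts together came to 10.9, 17.1, 8.45, 9.08 and 10.4 CPM in KO and to 65.1, 95.5, 68.6, 56.9 and 52.9 CPM in dKO. No dKO library overlapped KO, and the 1753 pair was the lowest of dKO. Of the 19 features, 17 had a higher pooled level in dKO and the other 2 had no counts in any library. Among the 17, Ugt1a1 had 0 counts in KO and 1 in dKO, and Gm15370 had 6 and 9. All 7 features that passed the expression filter had an unadjusted p under 0.05 and were higher, beside 3.04% of all tested genes. Without the pair this held for all 8, beside 4.2% of all. A feature could pass the filter through its level in dKO alone. Gm15372, for example, was at 0.358 to 0.809 CPM in KO and 3.06 to 7.42 CPM in dKO. That the features which passed were all higher was therefore in part set by the filter, and the shares of all genes are no measure of it. The features lie in 1 span, so they are not independent of each other. The Ugt1a features share exon bases with 9 other features each, so how the counts are divided among them is uncertain.

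Ugt1a6a (ENSMUSG00000054545, 89999827 to 90116577, 6 exons) was at 2.19, 2.93, 3.38, 1.70 and 1.79 CPM in KO and at 6.73, 12.9, 8.57, 12.4 and 10.2 CPM in dKO. These levels rest on 5 to 46 counts per KO library and 14 to 123 per dKO library. The log2 fold change was 2.12 (SE 0.26, edgeR adjusted p = 0.0100) and, without the 1753 pair, 2.01 (SE 0.33, edgeR adjusted p = 0.0132). Ugt1a5, a further enzyme of the cluster, was at 3.28, 5.2, 0.845, 1.70 and 1.07 CPM in KO and at 11.5, 20.8, 17.8, 12.6 and 9.90 CPM in dKO. Its groups did not overlap, and it passed only without the pair (2.54, SE 0.38, edgeR adjusted p = 0.00966, against 2.34 and 0.061 with all 10). Its highest values were those of dKO replicates 2 and 3, which had the highest epithelial and mammary marker sums. In dKO replicate 1 that sum was 5.45 CPM and Ugt1a5 was at 11.5 CPM, above all KO libraries. Ugt1a6a was at 8.57 CPM in replicate 3 and 12.4 CPM in 1753. The part of such cells was not tested. The predicted genes Gm15369, Gm15372 and Gm15374 had log2 fold changes of 3.57, 3.01 and 2.34 without the pair (edgeR adjusted p = 0.00103, 0.00966 and 0.0425). Gm15369 and Gm15372 were also called with all 10, at 3.29 and 2.84 (both adjusted p = 0.0100), whereas Gm15374 was not (2.02, adjusted p = 0.156). Ugt1a8 had no counts in KO and 50 in dKO, at least 20.2-fold higher against a floor of 3 counts over the KO group, and Ugt1a9 had none and 32, at least 12.9-fold higher. These floors cover counting error only.

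Calls in the cluster rested on single libraries in both fits. With all 10 libraries, leaving out KO replicate 1 moved the edgeR adjusted p to 0.0686 for Ugt1a6a and Gm15369 and 0.0612 for Gm15372. Without the 1753 pair, leaving out dKO replicate 2 moved it to 0.154 for Ugt1a6a, 0.108 for Ugt1a5, 0.0607 for Gm15369, 0.154 for Gm15372 and 0.188 for Gm15374. Leaving out dKO replicate 3 gave 0.0579 for Ugt1a6a, 0.0634 for Ugt1a5 and 0.191 for Gm15374, and leaving out KO replicate 1 gave 0.0511 for Ugt1a6a and 0.154 for Gm15374. Gm15374 was also lost without KO replicate 2 (0.0793), KO replicate 4 (0.0502) and dKO replicate 1 (0.117).

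Many of the genes that rose lie on the chromosome that carries Hdac4, most of them in 1 span, the Ugt1a cluster. Chromosome 1 held 6.12% of the tested genes and 4 of the 5 called with all libraries, and 8 of the 28 called without the pair. Of these, 3 and 5 were features of the Ugt1a span, which are not independent of each other. The others were Ctse in both fits and, without the pair, Lyplal1 and Phlda3, of which Phlda3 fell. The 4 became 0 without KO replicate 1, and the 8 became 5 without KO replicate 1, 2 without dKO replicate 2 and 5 without dKO replicate 3. An unadjusted p under 0.05 was reached by 9.34% of chromosome 1 genes and 5.28% of genes on other chromosomes. By distance from Hdac4 the share was 22.8% within 5 Mb (13 of 57 genes), 20.7% within 10 Mb, 17.9% within 20 Mb, 12.5% within 40 Mb and 7.35% beyond 40 Mb on that chromosome. Without the pair it was 26.7% within 5 Mb (16 of 60), 13.1% beyond 40 Mb and 13.7% on the whole chromosome, against 10.2% on other chromosomes. The Ugt1a cluster, about 3.71 Mb from Hdac4, gave much of this. Outside it 6 of 50 genes (12%) within 5 Mb had such a p, 4 higher and 2 lower, and without the pair 8 of 52 (15.4%), 2 higher and 6 lower, beside 5.28% and 10.2% on other chromosomes in the 2 fits.

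Beyond the cluster, and without the 1753 pair, Ctse and Lyplal1 rose and Phlda3, 43.62 Mb from Hdac4, fell. D2hgdh, which encodes a dehydrogenase of D-2-hydroxyglutarate and lies 1.677 Mb from Hdac4, was at -0.99 on the log2 scale (edgeR adjusted p = 0.061) and -0.94 without the pair (adjusted p = 0.0546), and it was chosen here after its values were seen. Ctse lies 39.49 Mb from Hdac4. Lyplal1 is a lysophospholipase-like gene 93.87 Mb away. Without the pair it rose by 1.28 on the log2 scale (SE 0.21, edgeR adjusted p = 0.0132). With all 10 libraries it was at 1.03 on that scale (edgeR adjusted p = 0.202). It was at 7.95 to 8.94 CPM in KO, at 22.8, 23.5 and 13.5 CPM in dKO replicates 1 to 3 and at 12 and 14.6 CPM in the pair, with no overlap. Its adjusted p was 0.0501 without KO replicate 1, 0.0509 without dKO replicate 1 and 0.119 without dKO replicate 2. The labels give no strain of origin for the HDAC4 allele, so an effect of the deletion and one of DNA linked to the floxed allele cannot be told apart.

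**Figure D2:**
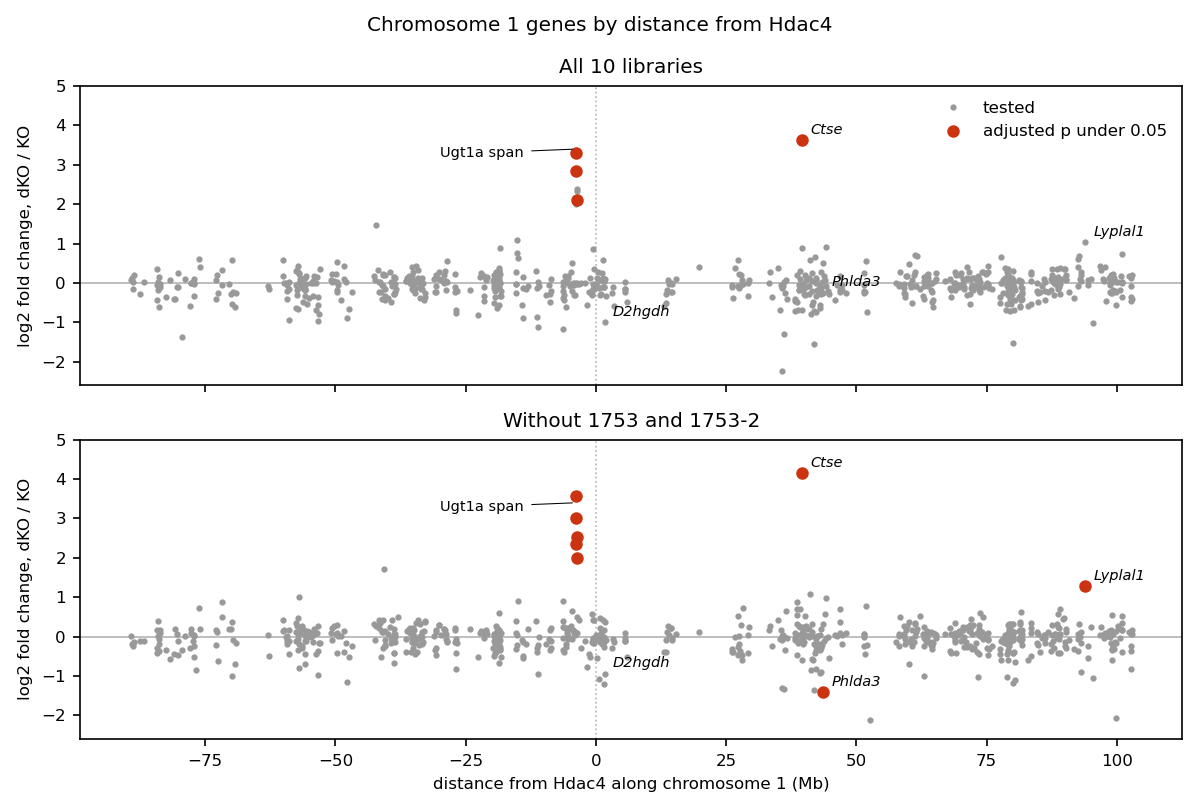
Log2 fold change of dKO over KO for tested genes of chromosome 1 against distance from Hdac4 in Mb, with all 10 libraries above and without 1753 and 1753-2 below. Red points are genes with an edgeR adjusted p under 0.05. The Ugt1a features stand above the other genes beside Hdac4, and Ctse stands 39.49 Mb away at 3.62 and 4.14.

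Ucp1 fell in dKO with all libraries, and most tested genes of the thermogenic list had negative fold changes. Ucp1 (ENSMUSG00000031710, mm9 chromosome 8, 85814247 to 85822355, 6 exons) was at 691, 557, 617, 254 and 286 CPM in KO and at 126, 107, 62.5, 99.7 and 89.8 CPM in dKO. Every dKO library was below every KO library, and the 1753 pair lay within the range of the other dKO libraries. The mean was 481 ± 199 CPM in KO and 96.9 ± 23.4 CPM in dKO libraries (SD, n = 5 each). The log2 fold change was -2.31 (SE 0.30, edgeR adjusted p = 0.0100). Without the pair it was nearly the same, -2.28 (SE 0.44), and did not pass (edgeR adjusted p = 0.132). Without KO replicate 1 the adjusted p was 0.0612.

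Cidea, a lipid droplet protein abundant in brown and beige fat, and Otop1, a proton channel found in those cells, fell without the pair. Cidea was at 24.6, 20.8, 24.1, 15.9 and 15 CPM in KO, at 8.98, 3.71 and 4.29 CPM in dKO replicates 1 to 3 and at 10.3 and 9.65 CPM in 1753 and 1753-2. All dKO libraries were below KO. Its log2 fold change was -1.83 (SE 0.29, edgeR adjusted p = 0.0123) without the pair and -1.37 (SE 0.27, adjusted p = 0.156) with it. Otop1 was at 81.4, 65.0, 90.9, 43.1 and 60.8 CPM in KO and at 29.2, 30.2 and 22.7 CPM in dKO replicates 1 to 3, whereas the pair, at 55.5 and 52.6 CPM, lay inside the KO range. Its log2 fold change was -1.30 (SE 0.22, edgeR adjusted p = 0.0188) without the pair and -0.81 (adjusted p = 0.791) with it. The Cidea call was lost without dKO replicate 2 (edgeR adjusted p = 0.117) or 3 (0.101) and with WT libraries in the fit (0.194). The Otop1 call was lost without KO replicate 1 (0.0501) or dKO replicate 1 (0.0657), 2 (0.115) or 3 (0.179).

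Of the 22 tested genes on the thermogenic list, 17 had a negative log2 fold change with all libraries (median -0.51) and 20 without the pair (median -0.84), beside medians of 0.0025 and -0.009 over all genes. With all 10, 1 fell and none rose, beside 0.0084% of all tested genes called lower, and 11 were lower with an unadjusted p under 0.05, beside 2.49% of all. Without the pair 2 fell and none rose, beside 0.134% called lower, and 12 were lower at that p, beside 6.23%. The list's summed level was 862 to 1800 CPM in KO and 560 to 777 CPM in dKO, without overlap, and the pair was at 777 and 744 CPM. Ucp1 alone was at 254 to 691 CPM in KO and 62.5 to 126 CPM in dKO. Without it, a split chosen after seeing the data, the sums of the other 25 members were 1110, 875, 947, 608 and 653 CPM in KO and 580, 616, 497, 678 and 654 CPM in dKO, which overlapped, and the medians of the other 21 tested genes were -0.41 with all libraries and -0.71 without the pair. Several members that did not pass, named here after their values were seen, had similar values in both fits. Gyk, a glycerol kinase, was at -1.18 and -1.21, Esrrg, a nuclear receptor of mitochondrial genes, at -1.02 and -1.06, and S100b, which promotes the innervation of thermogenic fat, at -1.65 and -1.87, each with all libraries and without the pair (edgeR adjusted p = 0.154, 0.154 and 0.162 with all 10). Dio2, the deiodinase that makes active thyroid hormone, was at -1.01 and -0.71 (edgeR adjusted p = 0.848 and 0.694). Ppargc1a, a coactivator of mitochondrial genes, was at -0.15 and -0.39 (adjusted p = 0.957 and 0.737), with libraries that overlapped between the groups.

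**Figure D3:**
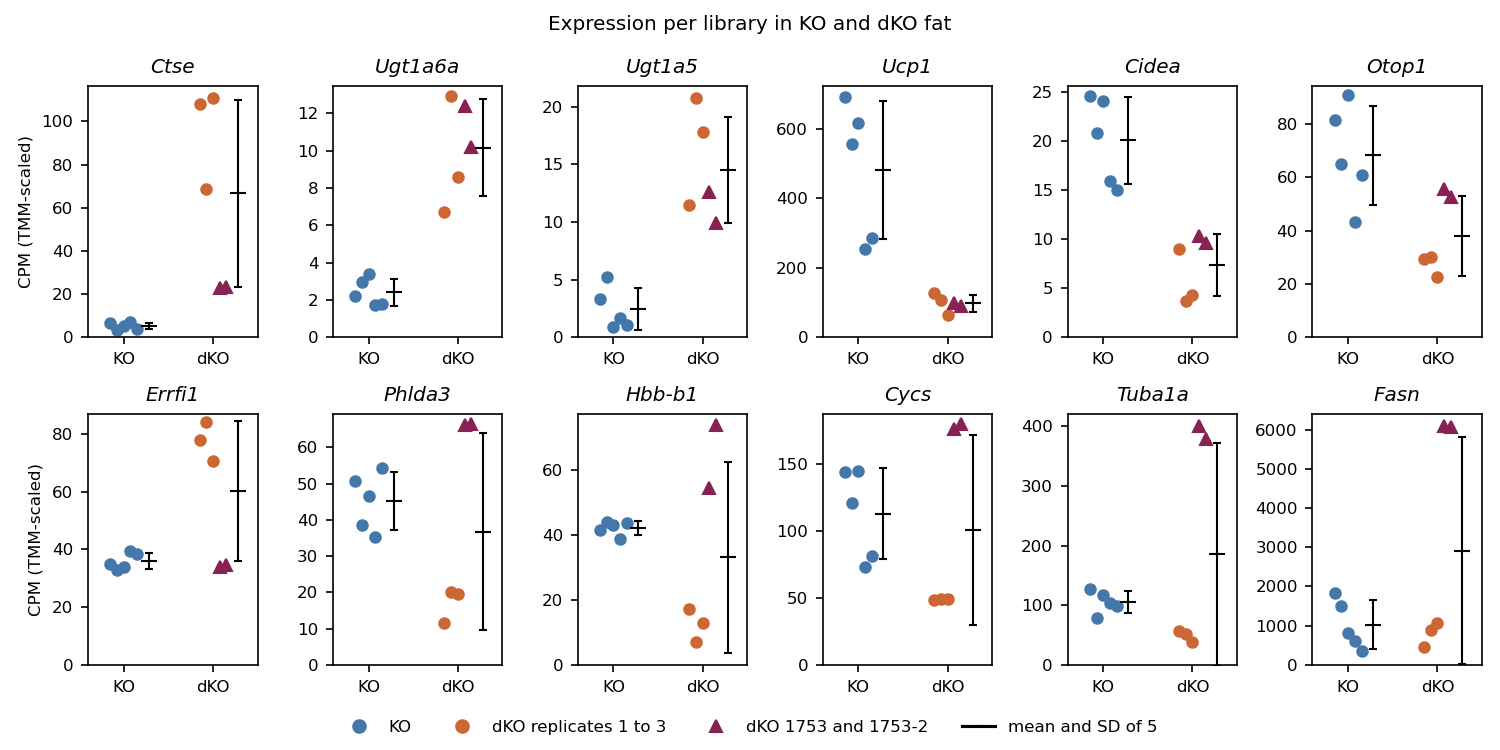
CPM of 12 genes in each library, with KO in blue, dKO replicates 1 to 3 in orange and 1753 and 1753-2 as purple triangles. Bars give the mean and SD of the 5 libraries of a group, with lower ends stopped at 0. In the upper row (Ctse, Ugt1a6a, Ugt1a5, Ucp1, Cidea, Otop1) the dKO libraries other than the pair lie on one side of KO. In the lower row the pair lies with or above KO while the other dKO libraries differ from it, or, for Fasn, the pair alone stands out.

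The mitochondrial messenger RNA was also lower in dKO, a difference that passed after adjustment with all 10 libraries and not without the pair. The transcripts encoded in the mitochondrial genome made up 11.78 ± 2.838% of the counts other than ribosomal RNA in KO and 8.153 ± 1.478% in dKO libraries (SD, n = 5 each), a difference of -3.63 percentage points (exact two-sided permutation p = 0.0159, 0.0477 adjusted over 3 library measures; the smallest possible is 0.00794). Without the pair the share in dKO was 8.144 ± 2.083% and the exact permutation p 0.0893 (0.268 adjusted over 3 library measures), where the smallest possible is 0.0179. With 1753 and 1753-2 summed into 1 library, as they may share a mouse, the exact permutation p was 0.0397 before adjustment. On leaving out 1 library it was 0.0159 without KO replicate 4 or dKO replicate 2, and 0.0397 to 0.0476 without any other, before adjustment. Adjustment over the 3 measures was not made for these runs, so whether the difference passes it in them is not shown. All 12 tested transcripts had a negative log2 fold change in both fits, with medians of -0.64 and -0.75, and none passed. Among them mt-Co1, a subunit of cytochrome oxidase, was at -0.43 and -0.49 (edgeR adjusted p = 0.875 and 0.479), and mt-Nd4, a subunit of complex I, at -0.74 and -0.73 (adjusted p = 0.864 and 0.508). The highest share was that of KO replicate 3 (16.11%), which also had the highest sum of skeletal muscle markers, 8770 CPM against 122 to 1680 CPM in the other libraries; the part of muscle in this result was not tested. Without KO replicate 3 the difference was -2.55 percentage points.

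Nuclear genes of respiration were lower in the 3 other dKO libraries and highest in the 1753 pair. The 58 tested nuclear genes of oxidative phosphorylation summed to 3980 to 5820 CPM in KO, to 3400 to 3690 CPM in dKO replicates 1 to 3, and to 8710 and 8430 CPM in the pair. All 58 had a negative log2 fold change without the pair (median -0.52), 44 with an unadjusted p under 0.05, beside 6.23% of all genes lower at that p. Of the 58, 1 fell, Cycs, beside 0.134% of all tested genes called lower. With all 10 libraries 11 of 58 were negative, the median was 0.15 and none passed. Cycs, which encodes cytochrome c, was at 144, 121, 145, 73.2 and 81.6 CPM in KO, at 48.4, 49.5 and 49.0 CPM in dKO replicates 1 to 3, and at 176 and 180 CPM in the pair. Its log2 fold change was -1.21 (SE 0.22, edgeR adjusted p = 0.0454) without the pair and -0.15 (adjusted p = 0.981) with it. The Cycs call was lost without KO replicate 1 (edgeR adjusted p = 0.068), 2 (0.0881) or 3 (0.0593), and without dKO replicate 1 (0.188), 2 (0.169) or 3 (0.259).

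The tricarboxylic acid cycle and fatty acid oxidation lists were likewise lowest in dKO replicates 1 to 3 and highest in the pair. Of 20 tested genes of the cycle, all were negative without the pair (median -0.54), 18 were lower with an unadjusted p under 0.05 (6.23% of all genes) and none passed, while with all libraries 9 were negative (median 0.03) and none passed. Sdha, a subunit of succinate dehydrogenase, was at -0.48 without the pair and -0.02 with it (edgeR adjusted p = 0.266 and 0.998), and Cs, citrate synthase, at -0.46 and 0.24 (adjusted p = 0.34 and 0.943). Of 22 tested genes of fatty acid oxidation, 2 fell without the pair, beside 0.134% of all tested genes called lower. They were Acaa2, the last enzyme of the beta-oxidation spiral (-1.02, SE 0.19, edgeR adjusted p = 0.0433), and Eci1, an enoyl-CoA isomerase (-0.81, SE 0.16, adjusted p = 0.0423). The list's median was -0.46 without the pair and -0.06 with it, when none passed. With all 10 libraries Acaa2 was at -0.42 (edgeR adjusted p = 0.895) and Eci1 at -0.05 (edgeR adjusted p = 0.995). In the pair Acaa2 was at 150 and 165 CPM, inside the KO range of 91.2 to 178 CPM, and at 57.6 to 75.5 CPM in the other dKO libraries. Neither call held in every alternative. Leaving out KO replicates 1, 2 or 3 or dKO replicates 1, 2 or 3 gave edgeR adjusted p of 0.096, 0.0854, 0.0593, 0.116, 0.142 and 0.293 for Acaa2 and 0.102, 0.0843, 0.0593, 0.116, 0.15 and 0.195 for Eci1. The Eci1 call was also lost with WT libraries in the fit (0.129).

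Glycolysis and lipid synthesis separated the 1753 pair from the other dKO libraries, with no gene called. Of 21 tested genes of glucose uptake and glycolysis, 20 were negative without the pair (median -0.62), and 7 with it (median 0.11). At an unadjusted p under 0.05 without the pair, 12 were lower and 1 higher, beside 6.23% and 4.2% of all genes. Of 24 tested genes of fatty acid synthesis, 22 were negative without the pair (median -0.41) and 2 with it (median 0.86). Both 1753 libraries were above all other 8 libraries for 23 of 24, beside 18.7% of all tested genes. Of 19 tested genes of cholesterol synthesis, both were above for 16, beside the same 18.7%, and the median was -0.47 without the pair and 0.61 with it. Fasn, the fatty acid synthase, was at 348 to 1840 CPM in KO, at 459, 887 and 1060 CPM in dKO replicates 1 to 3 and at 6100 and 6070 CPM in the pair. Its log2 fold change was 1.51 (SE 0.71, edgeR adjusted p = 0.875) with all libraries and -0.36 (SE 0.60, adjusted p = 0.893) without. Adipoq, the adiponectin gene whose promoter drives Cre, was at 260 to 365 CPM in KO and 312 to 438 CPM in dKO (log2 fold change 0.15, edgeR adjusted p = 0.925), and Lep, leptin, at 168 to 290 CPM in KO, 116 to 258 CPM in dKO replicates 1 to 3 and 516 and 543 CPM in the pair.

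**Figure D4:**
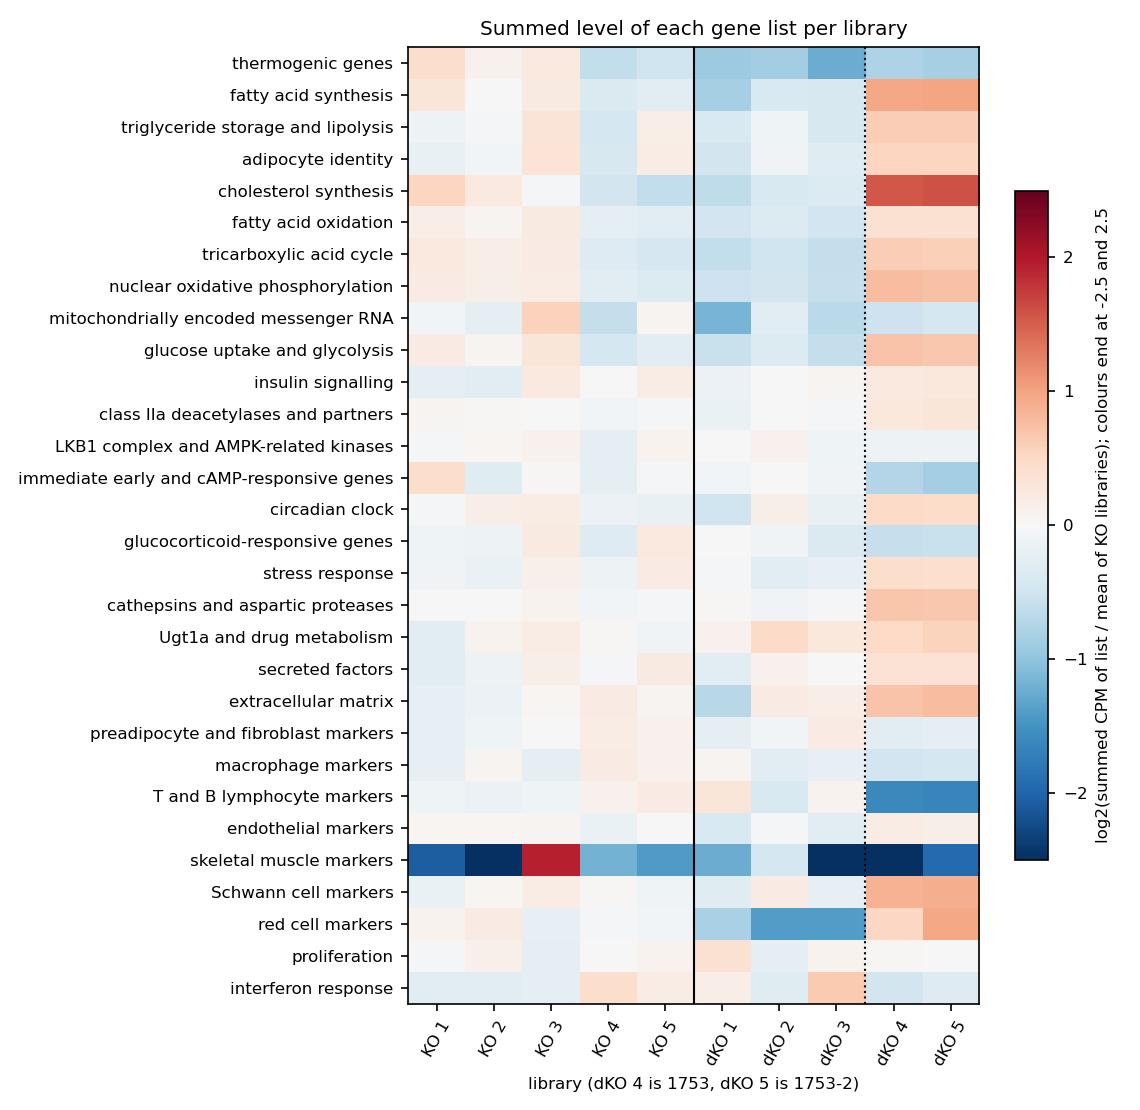
Summed CPM of each gene list with at least 5 tested members in each library, as log2 of its ratio to the mean of the KO libraries (red higher, blue lower). The solid line parts KO from dKO and the dotted line parts 1753 and 1753-2 from the other dKO libraries. In the pair, lipid synthesis and nuclear respiration lists are red, and lymphocyte markers are blue. Mitochondrially encoded messenger RNA is blue in all 5 dKO libraries and in some KO libraries. The thermogenic list, whose sums overlapped between the groups when Ucp1 was left out, is blue in all 5 dKO libraries.

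Genes of signalling and growth were among the other calls without the pair. Errfi1, which encodes an inhibitor of the EGF receptor, rose: it was at 34.9, 33.0, 33.8, 39.5 and 38.3 CPM in KO and at 77.9, 84.1 and 70.4 CPM in dKO replicates 1 to 3. The pair, at 33.9 and 34.6 CPM, was at the KO level. Its log2 fold change was 1.12 (SE 0.13, edgeR adjusted p = 0.00103) without the pair, a call that held in each of 14 alternatives, and 0.73 (SE 0.25, adjusted p = 0.808) with it. Phlda3, a p53 target that restrains AKT, fell: it was at 50.8, 38.7, 46.5, 35.2 and 54.4 CPM in KO, at 11.5, 20 and 19.6 CPM in dKO replicates 1 to 3 and at 66.1 and 66.4 CPM in the pair. Its log2 fold change was -1.41 (SE 0.21, edgeR adjusted p = 0.00966), also held in each of 14 alternatives, and -0.24 (adjusted p = 0.957) with the pair. For both genes the pair and the other dKO libraries did not overlap. Grb14, an adaptor that inhibits the insulin receptor, fell by 1.13 (SE 0.21, edgeR adjusted p = 0.0304). With all 10 libraries it was at -0.61 (edgeR adjusted p = 0.864). The pair was at 15.6 and 20.7 CPM, beside 16.5 to 24.7 CPM in KO. Without the pair Grb14 was the 1 gene called of 22 tested on the insulin signalling list, beside 0.235% of all tested genes called in that fit. The Grb14 call was lost without KO replicate 1 (0.102), 2 (0.0517) or 3 (0.0554), without dKO replicate 1 (0.0766), 2 (0.137) or 3 (0.189), and with WT libraries in the fit (0.0636).

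Further rises without the pair were those of Fam38b, a mechanically gated channel also named Piezo2 (log2 fold change 1.97), Lrp3, a receptor of the LDL receptor family (1.16), Banp, a nuclear matrix protein (1.02), and Gdap10 (0.88). Their edgeR adjusted p values were 0.028, 0.028, 0.0431 and 0.00966. With all 10 libraries their log2 fold changes were 1.46, 0.85, 0.58 and 0.65 (edgeR adjusted p = 0.748, 0.649, 0.878 and 0.538). Banp was at 7.8 and 10.7 CPM in the pair, inside the KO range of 7.18 to 12.8 CPM. In the 1753 pair Fam38b was at 5.62 and 3.83 CPM, beside 2.11 to 4.24 in KO and 5.77, 16.6 and 18.4 CPM in the other dKO libraries. Lrp3 was at 20.8, 35.4 and 36.7 CPM in dKO replicates 1 to 3, beside 11.8 to 17.2 CPM in KO and 18.2 and 16.3 CPM in the pair. Both genes were highest in dKO replicates 2 and 3, which also had the highest sums of epithelial and mammary markers (42.3 and 67.4 CPM, against 1.07 to 23.7 CPM in the other libraries), and the part of such cells was not tested. Gdap10 was higher in all 5 dKO libraries than in KO, at 50.9 to 90.4 against 38.9 to 50.8 CPM. Leaving out dKO replicate 2 ended all 4 calls (edgeR adjusted p = 0.158, 0.154, 0.115 and 0.0723), and leaving out dKO replicate 3 ended those of Fam38b (0.195), Lrp3 (0.211) and Banp (0.198). The Fam38b call was also lost without KO replicate 1 (0.0501), 2 (0.0527) or 3 (0.0554), that of Lrp3 without KO replicate 1 (0.096) or 3 (0.0554), and that of Banp without KO replicate 1 (0.114), 2 (0.0552), 3 (0.0554) or 5 (0.0567) or dKO replicate 1 (0.167) or with WT libraries in the fit (0.0636).

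Further falls without the pair were those of Cpn2, a subunit of the plasma carboxypeptidase N (-2.07), Tuba1a, an alpha-tubulin (-1.08), Tmem45b (-1.01), Atf5, a transcription factor of the mitochondrial stress response (-0.93), and Trp53inp2, which acts in autophagy (-0.91). Their edgeR adjusted p values were 0.0167, 0.00966, 0.0304, 0.0425 and 0.0353. With all 10 libraries their log2 fold changes were -0.26, 0.83, -0.45, -0.30 and -0.03 (edgeR adjusted p = 0.966, 0.904, 0.894, 0.911 and 0.998). Tuba1a was at 79.2 to 127 CPM in KO, at 38.6 to 56.8 CPM in dKO replicates 1 to 3 and at 401 and 378 CPM in the pair, so that its log2 fold change was 0.83 (adjusted p = 0.904) with all libraries. Tubulin genes are alike in sequence, and its counts may hold reads of a paralog. For Cpn2, Tuba1a and Trp53inp2 the pair was above every other library that entered these comparisons. Leaving out dKO replicate 2 gave edgeR adjusted p of 0.0999, 0.0723, 0.154, 0.158 and 0.0607 for the 5 genes in the order above, and leaving out dKO replicate 3 gave 0.086, 0.101, 0.252, 0.113 and 0.261. Leaving out dKO replicate 1 ended the calls of Cpn2 (0.074), Atf5 (0.13) and Trp53inp2 (0.137). Leaving out KO replicate 1 ended those of Cpn2 (0.0501), Tmem45b (0.078), Atf5 (0.131) and Trp53inp2 (0.096). Without KO replicate 2 those of Tmem45b (0.0574) and Atf5 (0.0793) were lost, without KO replicate 3 those of Tmem45b (0.0593), Atf5 (0.071) and Trp53inp2 (0.0564), and without KO replicate 5 that of Trp53inp2 (0.0614). With WT libraries in the fit none of the 5 passed (0.104, 0.0993, 0.0616, 0.0891 and 0.104). Sod2, the mitochondrial superoxide dismutase (-0.82, adjusted p = 0.0198), and Slc16a1, a lactate transporter (-0.84, adjusted p = 0.0353), also fell and are outside the naming rule, chosen after their values were seen.

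Markers of other cells differed between libraries. Hbb-b1, a beta-globin of red cells, fell without the pair (-1.80, SE 0.22, edgeR adjusted p = 0.00103), from 38.9 to 44.1 CPM in KO to 17.3, 7.18 and 12.9 CPM in dKO replicates 1 to 3, while the pair was at 54.6 and 73.8 CPM. Beta-globin genes are near copies, so its counts may be shared, and with WT libraries in the fit it did not pass (adjusted p = 0.104). With all 10 libraries Hbb-b1 was at -0.28 (edgeR adjusted p = 0.957). The red cell list summed to 77.8 to 103 CPM in KO, 34.2 to 51.0 CPM in dKO replicates 1 to 3 and 129 and 176 CPM in the pair. T and B lymphocyte markers summed to 2040 to 2580 CPM in KO and 1720 to 2760 CPM in dKO replicates 1 to 3, and to 733 and 715 CPM in the pair. In the pair all 22 markers were below the other 8 libraries, beside 18% of all tested genes. Schwann cell markers summed to 230 to 325 CPM in the other libraries and 514 and 527 CPM in the pair, and Pmp22 held most of this. Pmp22 was at 423 and 442 CPM in the pair, against 127 to 236 CPM in the other libraries. Mbp was at 39.1 and 36.1 CPM in the pair, within the 35.4 to 45.5 CPM of the others. Of 7 tested Schwann cell markers, both 1753 libraries were above the other 8 for 1 and below for 1. No epithelial or mammary marker passed the expression filter, but their sums differed, with 1.07 to 9.05 CPM in KO, 5.45, 42.3 and 67.4 CPM in dKO replicates 1 to 3 and 5.39 and 23.7 CPM in 1753 and 1753-2. Macrophage markers had 14 of 18 negative values with all libraries (median -0.32) and 13 without the pair (median -0.13), with none called. The part of these cells in the gene results was not tested.

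The partners of HDAC4 did not show a called gene. Of 18 tested class IIa deacetylases, MEF2 factors, CRTC coactivators, corepressors and 14-3-3 proteins, 0 passed edgeR in either fit, 0 had an unadjusted p under 0.05 with all libraries (5.53% of all genes) and 1 without the pair (10.4% of all), Ywhag, a 14-3-3 protein (-0.40, adjusted p = 0.354). Hdac5, Hdac7 and Hdac9, the other class IIa members, were at 0.08, 0.10 and -0.16 with all libraries and at 0.03, 0.16 and 0.26 without the pair. Of 21 tested subunits of the LKB1 complex and AMPK-related kinases, 0 passed edgeR in either fit, and 1 had an unadjusted p under 0.05 with all libraries and 3 without the pair, beside 5.53% and 10.4% of all genes. Sik2, a salt-inducible kinase abundant in fat, was at 241 to 380 CPM in KO and 228 to 351 CPM in dKO (log2 fold change -0.19, edgeR adjusted p = 0.911). Of 15 tested immediate early and cAMP-responsive genes, 14 were negative with all libraries (median -0.42) and 12 of 16 without the pair (median -0.11). Of these 0 passed edgeR in either fit, with 1 at an unadjusted p under 0.05 with all libraries (5.53% of all genes) and 0 without (10.4% of all). Both 1753 libraries were below the other 8 for 7 of the 15, beside 18% of all tested genes.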

How the data were processed

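Total RNA (RNeasy kit) was made into libraries with Ovation kits from NuGEN, per the labels' protocols. The authors deposited raw counts of reads per gene, per the file headers; FastQC, Subread, featureCounts and edgeR on mm9 appear in the submitters' processing notes, without versions. The sources used here do not give strand, duplicate or multi-mapping settings. Of 37991 genes, 415 have no symbol. A further 45 per-sample columns of scaled values were not used.

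The analysis used edgeR 4.0.16 under R 4.3.3: expression filter (minimum count 10, minimum total 15), TMM scaling, robust quasi-likelihood F test, two-sided, Benjamini-Hochberg over all tested genes, called under 0.05. The fit of 10 libraries had 8 residual degrees of freedom and that without 1753 and 1753-2 had 6. No set test was made. Alternatives used DESeq2 1.42.0, limma 3.58.1 (voom), other scaling and filters, and each library left out. At 911371 counts or more outside ribosomal RNA, a gene near 1 CPM rests on few reads. Libraries were compared pairwise by a chi-square test of counts. Scripts were tested on simulated data.

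Named genes were both targeted genes, all genes called where 24 or fewer were (otherwise 12 rises and 12 falls without overlap and with mean log2 CPM at or above 1), up to 3 called or 2 abundant members of each of 31 lists, called genes within 20 Mb of Hdac4, and a few thermogenic and adipocyte genes. One called gene is not reported here. Members, lists and tests were chosen with earlier results of these data known. Titles carry mouse labels without replicate numbers, and numbers used here only name libraries. Replicates were separate mice per the design, except that 1753 and 1753-2 may share one.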

Additional observations from a re-analysis of the deposited data

Results flagged for a closer look

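Of 156 groups of 5 libraries examined, 8 held a library whose gap to its nearest neighbour was large for the range of its group, and chance alone gives about 1 in 20 groups, or 7.8. The rule finds a single library apart from the rest, so 1753 and 1753-2 hide each other in dKO. Fasn, at 6100 and 6070 CPM in them, was not flagged, so the count does not measure how far the pair stands apart. KO replicate 3 was the highest for the muscle genes Ttn (5090 CPM, next 582) and Myh4 (1900 CPM, next 175) and the lowest for Banp (7.18 CPM, next 11.4). KO replicate 1 had the highest total, 21570688 counts. In dKO, replicate 2 was the highest for Pfkfb3, a regulator of glycolysis (645 CPM, next 418), and for the Ugt1a cluster feature Gm15372 (7.42 CPM, next 4.17). Replicate 3 was the lowest for Clock (78.4 CPM, next 90.1), and replicate 1 was the highest for the proliferation marker Mki67 (80.2 CPM, next 60.4).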

How the results depend on the processing

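With all 10 libraries the count of 5 genes was 5 to 7 with no expression filter, median-of-ratios size factors, voom, no mitochondrial ribosomal RNA or the 1753 libraries summed. It was 29 with DESeq2 (16 higher, 13 lower), 9 with WT libraries in the fit (5 higher, 4 lower) and 28 without 1753 and 1753-2, and 0 to 8 on leaving out 1 library. List members called, 3, became 14, 6 and 11 under those settings and 0 to 4 on leaving out 1 library. Called genes on chromosome 1, 4, became 15, 7 and 8, and 0 to 5. Without 1753 and 1753-2 the count of 28 was 202 with no filter (59 higher, 143 lower), 94 with DESeq2 (33 higher, 61 lower) and 45 with voom (19 higher, 26 lower), and 4 to 56 on leaving out 1 library. With WT libraries in the fit it was 19 (13 higher, 6 lower), of which 16 were shared. List members called, 11, became 63 with no filter, 33 with DESeq2 and 7 with WT libraries, and 2 to 23 on leaving out 1 library. Called genes on chromosome 1, 8, became 34 with no filter and 17 with DESeq2, and 2 to 11. The mitochondrial messenger RNA difference was -3.64 percentage points without 1753 and 1753-2 (exact permutation p = 0.0893). It was -4.47 to -2.55 on leaving out 1 library (exact permutation p = 0.0159 to 0.0476). These p values are before adjustment. The causes were not tested.

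Some log2 fold changes that did not pass with all 10 libraries changed sign. Cycs became 0.02, 0.02 and 0.01 without dKO replicates 1, 2 and 3 (-0.47 to 0.02 on leaving out 1 library). Tuba1a became -0.05 with voom and -1.08 without the 1753 pair. Trp53inp2 became 0.01 with no filter, 0.03 without KO replicate 1 or 5, and 0.15, 0.08 and 0.12 without dKO replicates 1, 2 and 3 (-0.30 to 0.15 on leaving out 1 library). Eci1 became 0.03 without KO replicate 3 and 0.09, 0.09 and 0.06 without dKO replicates 1, 2 and 3 (-0.31 to 0.09 on leaving out 1 library). No paired analysis was possible because the titles give mouse labels and no replicate numbers shared between the groups. Library depth limits genes near 1 CPM, and 5 against 3 libraries limits the second fit.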
